A study of Rattus norvegicus with 18 samples.

Results

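Aminoacyl-tRNA synthetases are the enzymes that attach each amino acid to its transfer RNA (tRNA), and their messenger RNAs were followed in cultured heart muscle cells given phenylephrine (PE), Senexin A or both. The genes were taken by symbol from a deposited table of 17303 rows. Of 36 listed synthetases, 34 were found, namely 20 of 20 cytosolic and 14 of 16 mitochondrial ones; Iars2 and Mars2 were not analysed here. The cells were ventricular myocytes from Wistar rats on postnatal day 3, kept for 48 h with AraC (which kills dividing cells) and for 24 h without serum. They then had 48 h of treatment, renewed after 24 h. The groups were PE at 10 µM, PE with Senexin A at 10 µM, PE with Senexin A at 50 µM, Senexin A alone at 10 µM, Senexin A alone at 50 µM, and Vehicle, with 3 libraries of polyadenylated RNA each. PE activates alpha1-adrenergic receptors and drives hypertrophic growth of such cells, and Senexin A inhibits CDK8, a kinase of the Mediator complex that links transcription factors to RNA polymerase II. Whether the libraries of a group came from separate cultures is not stated, so the p-values speak only of variation among these libraries, part or all of which may be technical.

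The table gave FPKM, fragments per kilobase of transcript scaled to the mapped fragments of the library, so levels of different genes can be set side by side per length. FPKM sums ran from 610324 to 910958 per library, and the relative depth of the libraries ran from 0.833 to 1.11 of Vehicle replicate 2; absolute depth is unknown. The 6 cardiomyocyte markers were present in every library, at levels from those of Ryr2 (45.07 to 109.4 FPKM) to those of Myl2 (21310 to 80210 FPKM), and did not move together. In PE with 50 µM against PE, 1 of 6 rose (Myh6, at 1.87 ± 0.69 on the log2 scale, with overlapping groups) and 2 fell (Myl2 by 1.14 and Actn2 by 1.02). In 50 µM alone against Vehicle, 2 of 6 rose (Myh6 and Tnni3) and 1 fell (Actn2). Rises and falls of markers in this paragraph are calls of the test used below (limma, adjusted p under 0.05). Over all rows tested, 29.3% were called higher and 27.4% lower in PE with 50 µM against PE. In 50 µM alone against Vehicle these shares were 30.5% and 30.2%. The marker lists are short, and their counts were not tested against these shares. Their sum, most of which is Myl2, was 38360 to 49280 FPKM in PE with 50 µM, against 75760 to 93030 FPKM in PE, and 29470 to 47230 FPKM in 50 µM alone, against 30300 to 44220 FPKM in Vehicle. Summed endothelial markers reached at most 6.66 FPKM and summed macrophage markers 37.5 FPKM, whereas smooth muscle and fibroblast markers were present at higher levels. The 4 smooth muscle markers summed to 1798 to 1953 FPKM in PE with 50 µM, against 3786 to 5690 FPKM in PE, and to 1774 to 2778 FPKM in 50 µM alone, against 4503 to 6088 FPKM in Vehicle. In each of these comparisons 3 of the 4 fell, and of 3 endothelial markers tested 2 fell with PE and 1 without it. The 7 fibroblast markers summed to 423 to 798 FPKM in PE with 50 µM, against 700.2 to 1162 FPKM in PE, and to 632 to 824 FPKM in 50 µM alone, against 1027 to 1743 FPKM in Vehicle. Col1a1 carried this and was the 1 of 6 tested fibroblast markers that fell in each comparison; 4 of the 6 had positive values with PE (median log2 fold change 0.12) and 1 without it (median -0.13). Col1a2 stood at the table's floor of 0.01 FPKM in 15 libraries. Fewer cells of a type and less RNA per cell cannot be told apart in such cultures, and the part of these markers in the results that follow was not tested.

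Each cell holds separate sets of synthetases for the cytosol and for the mitochondrion, mostly from separate genes, although Gars and Kars, for glycine and lysine, supply both compartments. In the cytosol, 8 of these enzymes form the multisynthetase complex together with the scaffold proteins Aimp1, Aimp2 and Eef1e1. When a tRNA lacks its amino acid, the kinase GCN2 (Eif2ak4) phosphorylates the initiation factor eIF2, and the transcription factor ATF4 is then made in larger amounts; in other mammalian cells ATF4 raises many cytosolic synthetase genes along with amino acid transporters and biosynthetic enzymes.

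All 34 synthetases were at 1 FPKM or more in each of the 18 libraries. Sars, for serine, had the highest mean level over all libraries, at 192 FPKM, and Pars2, for mitochondrial proline, the lowest, at 3.63 FPKM. Cytosolic genes ranked above mitochondrial ones with 1 exception: Tars2, for mitochondrial threonine, averaged 31.5 FPKM and stood above Farsa, the alpha subunit of the cytosolic phenylalanine enzyme, at 26.9 FPKM. The 20 cytosolic genes summed to 1001 ± 65.9 FPKM in PE, to 1284 ± 148 FPKM with 10 µM Senexin A added and to 2677 ± 127 FPKM with 50 µM added (SD, n = 3 each). Without PE the sums were 981 ± 50.2 FPKM in Vehicle, 1096 ± 48.0 FPKM at 10 µM and 2448 ± 186 FPKM at 50 µM. The mitochondrial genes summed to 134 ± 3.20, 159.5 ± 5.07 and 199 ± 5.77 FPKM along the doses with PE, and to 125 ± 5.16, 136 ± 2.70 and 189 ± 12.2 FPKM without it. The cytosolic sum was therefore 7.47 ± 0.341 times the mitochondrial one in PE, 8.06 ± 1.05 times at 10 µM and 13.5 ± 0.464 times at 50 µM. Without PE these ratios were 7.85 ± 0.527, 8.05 ± 0.346 and 13.0 ± 0.182. At 50 µM every library lay above every library of the other groups in both sums and in the ratio. As a share of the table's sum, the cytosolic genes made up 0.324% ± 0.00824 in PE with 50 µM, against 0.120% ± 0.00956 in PE (SD, n = 3 each).

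**Figure D1:**
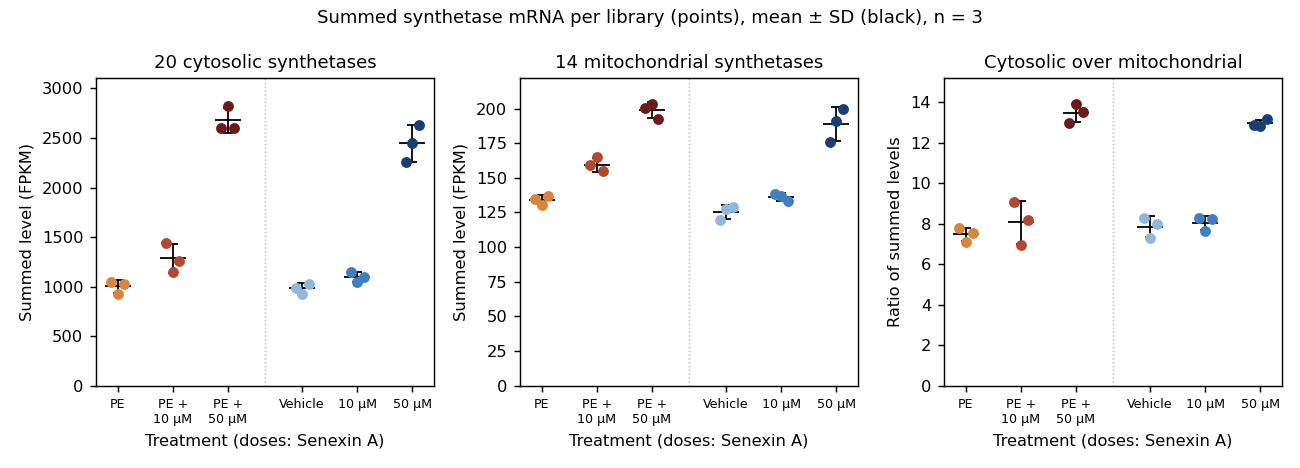
Summed FPKM of the cytosolic and of the mitochondrial synthetases, and the ratio of these sums, by treatment; points are libraries, black bars the mean ± SD of 3 libraries, and doses are of Senexin A. The cytosolic sum averaged 2677 FPKM in PE with 50 µM and 2448 FPKM in 50 µM alone, and between 981 and 1284 FPKM in the other 4 groups.

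The first comparison asked what 50 µM Senexin A did to synthetase mRNA in PE-treated cells. With PE, 19 of 20 cytosolic and 9 of 14 mitochondrial synthetases rose, and the other 6 did not pass the test (limma on log2(FPKM + 1), adjusted p under 0.05). Over all 10478 rows tested, 29.3% were called higher and 27.4% lower. The median log2 fold change was 1.41 for cytosolic genes, 0.38 for mitochondrial genes and 0.00 for all rows tested. As plain ratios of mean FPKM, without the added 1 that shrinks changes of low genes, the medians were 2.72 for cytosolic and 1.34 for mitochondrial genes. At least 2-fold ratios were seen in 13 of 20 cytosolic genes and in 1 of 14 mitochondrial genes, and at least 1.5-fold ratios in 15 and 5. The shares of all rows that reach these ratios were not computed.

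Wars, for tryptophan, had 188, 201 and 199.7 FPKM in PE with 50 µM, against 42.7, 38.4 and 44.4 FPKM in PE. Its log2 fold change was 2.20 ± 0.12 (SE; adjusted p = 1.83e-09). Gars had 274, 305 and 292 FPKM in PE with 50 µM, against 72.5, 61.6 and 75.0 FPKM in PE, a log2 fold change of 2.05 ± 0.12 (adjusted p = 3.27e-09). In both genes each library with inhibitor was over 3 times as high as any library without it. Mars, for methionine, had 156, 164 and 158 FPKM in PE with 50 µM, against 40.7, 33.0 and 42.9 FPKM in PE, with a log2 fold change of 2.02 ± 0.11 (adjusted p = 2.42e-09). The Mars value is uncertain, because the table gives Mars and Ddit3 the same locus of 22059 bases on chromosome 7 (rn5) and counting by strand is not stated; Ddit3, which encodes the stress factor CHOP, rose as well. Next in size were Yars (tyrosine), Lars (leucine) and Sars, at 1.92, 1.92 and 1.91 on the log2 scale. The smallest cytosolic rises were those of Dars (aspartate) at 0.35, Qars (glutamine) at 0.28 and Hars (histidine) at 0.28.

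Among mitochondrial genes Rars2, for arginine, had 18.2, 18.5 and 17.1 FPKM in PE with 50 µM, against 7.23, 6.82 and 8.35 FPKM in PE (log2 fold change 1.17 ± 0.11, adjusted p = 3.08e-07). Tars2 had 45.7, 46.4 and 44.3 FPKM in PE with 50 µM, against 26.6, 24.5 and 23.6 FPKM in PE (0.84 ± 0.07, adjusted p = 1.48e-07). Yars2, for tyrosine, had 15.2, 15.9 and 13.3 FPKM in PE with 50 µM, against 7.42, 8.81 and 10.1 FPKM in PE (0.70 ± 0.11, adjusted p = 4.35e-05). The groups did not overlap in any of these genes. Most genes given with library values were picked as the largest called rises, so here and below such separation is no further support. The share of all rows with groups apart was not computed. The other called rises lay between 0.34 for Vars2 (valine) and 0.58 for Hars2 (histidine). Those of Nars2 (asparagine) and Sars2 (serine) missed the threshold when 1 PE library was left out, with adjusted p = 0.0519 without PE replicate 1 and 0.0513 without PE replicate 2.

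**Figure D2:**
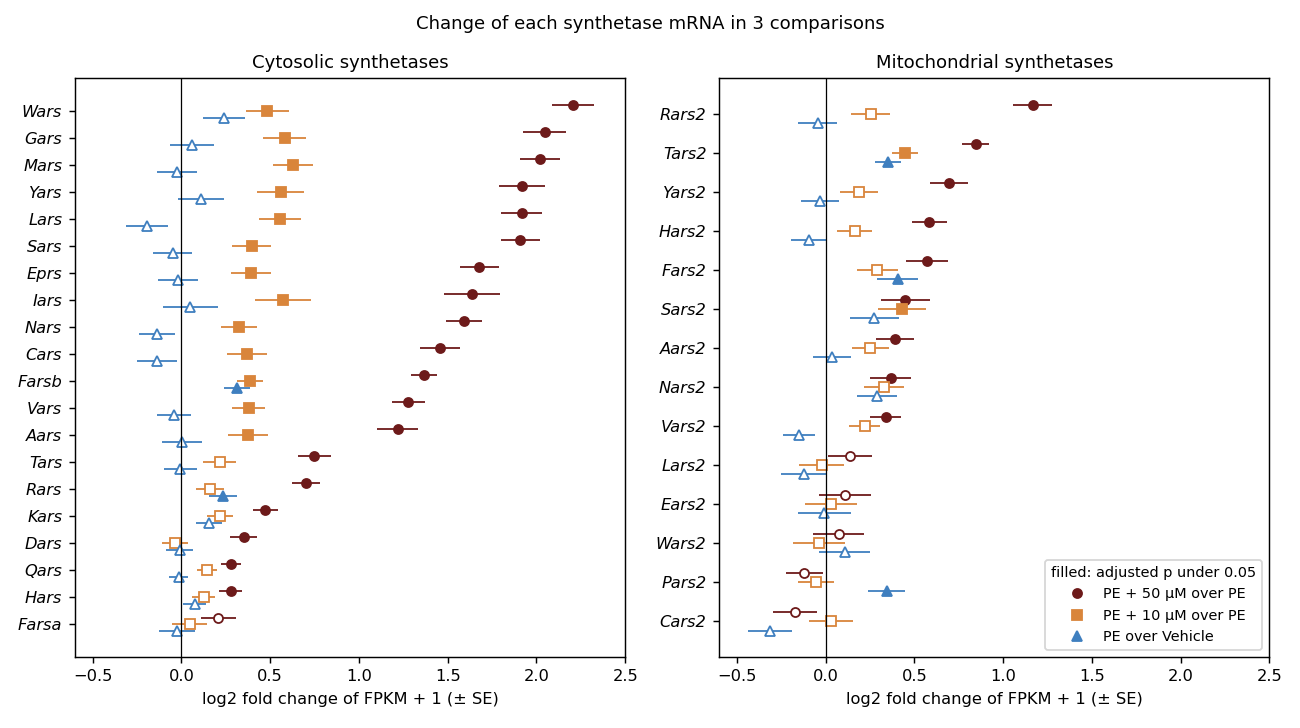
Log2 fold change of FPKM + 1 (x axis, ± SE) of each cytosolic (left) and mitochondrial (right) synthetase for 50 µM and 10 µM Senexin A in PE-treated cells against PE, and for PE against Vehicle; filled symbols passed an adjusted p under 0.05. At 50 µM, 13 cytosolic genes lay between 1.22 and 2.20, and Farsa alone among the cytosolic genes was not called, at 0.21.

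The genes that did not pass the test were Farsa and the mitochondrial Cars2, Ears2, Lars2, Pars2 and Wars2. Farsa had 31.2, 27.6 and 28.1 FPKM in PE with 50 µM, against 26.1, 22.6 and 26.2 FPKM in PE, a log2 fold change of 0.21 ± 0.10 (adjusted p = 0.0876). The libraries did not overlap, and the gene was called with the replicate number as a block (adjusted p = 0.0326) and with array weights (adjusted p = 0.0206). Its partner Farsb, the beta subunit of the same enzyme, had 101, 112 and 105 FPKM in PE with 50 µM, against 40.8, 40.2 and 40.7 FPKM in PE, a log2 fold change of 1.36 ± 0.07 (adjusted p = 1.81e-09). The ratio of Farsb to Farsa was 3.68 ± 0.419 in PE with 50 µM and 1.63 ± 0.125 in PE, and it was 3.06 ± 0.682 in 50 µM alone and 1.28 ± 0.113 in Vehicle (SD, n = 3 each).

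Cars2, for cysteine, had 6.68, 6.26 and 6.58 FPKM in PE with 50 µM, against 8.70, 7.46 and 6.39 FPKM in PE, with 1 PE library inside the range of the inhibitor libraries (-0.17 ± 0.13, adjusted p = 0.252). Pars2 had 3.91, 4.10 and 3.72 FPKM in PE with 50 µM, against 4.15, 4.57 and 4.29 FPKM in PE (-0.12 ± 0.10, adjusted p = 0.336), with all inhibitor libraries below all PE libraries. Cars2 and Pars2 were the only members with a negative value in this comparison. Lars2 (leucine) had 8.87, 9.19 and 8.71 FPKM in PE with 50 µM, against 6.69, 7.54 and 10.2 FPKM in PE (0.14 ± 0.13, adjusted p = 0.371, but 0.0463 without PE replicate 3). Ears2 (glutamate) had 4.80, 5.88 and 7.37 FPKM in PE with 50 µM, against 5.87, 5.46 and 5.01 FPKM in PE (0.11 ± 0.15, adjusted p = 0.554). Wars2 (tryptophan) had 7.04, 6.31 and 6.54 FPKM in PE with 50 µM, against 5.93, 7.07 and 5.81 FPKM in PE (0.07 ± 0.14, adjusted p = 0.689). In Lars2, Ears2 and Wars2 the groups overlapped.

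**Figure D3:**
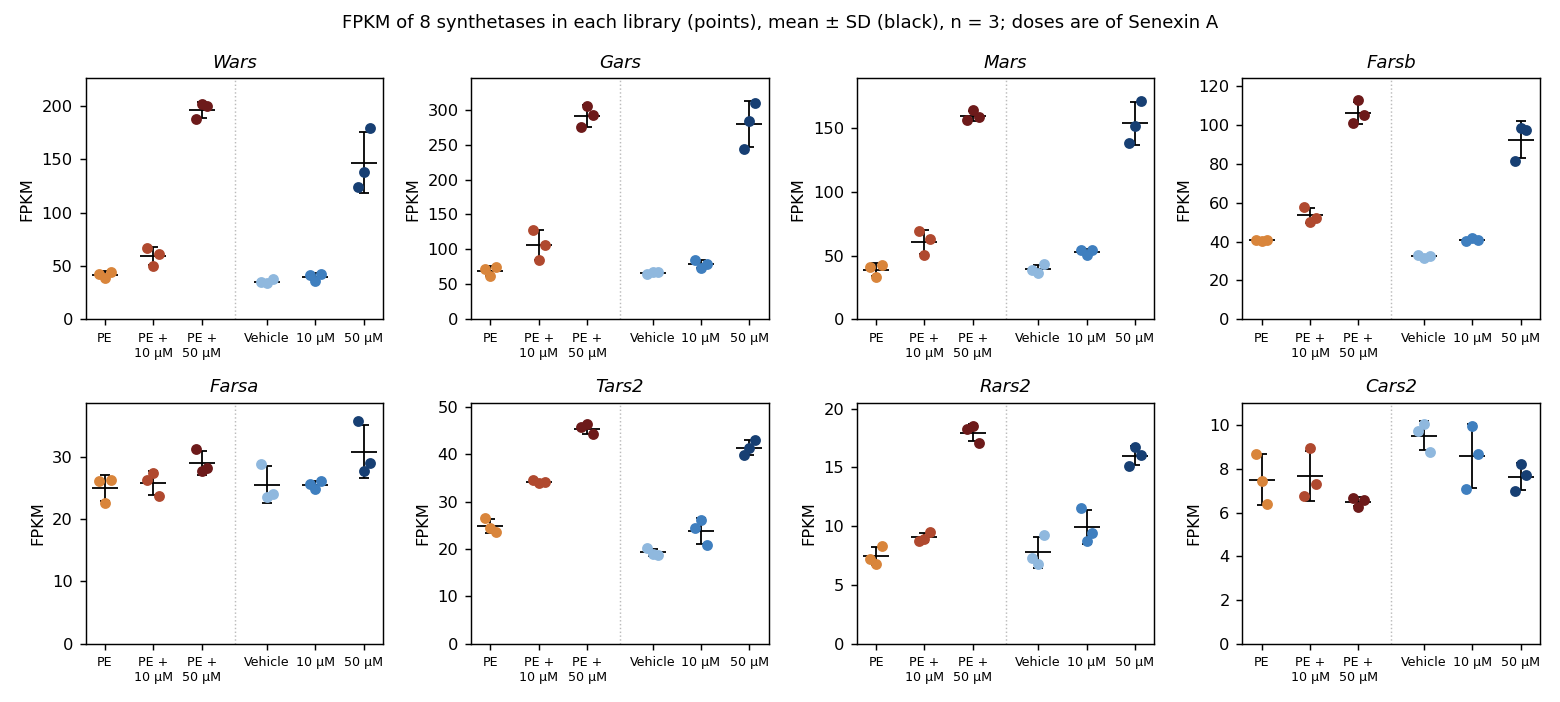
FPKM of 8 synthetases by treatment, with libraries as points and the mean ± SD of 3 libraries in black; each y axis starts at 0 and doses are of Senexin A. Farsb averaged 106 FPKM in PE with 50 µM and 40.6 FPKM in PE, while its partner Farsa averaged 29.0 and 25.0 FPKM.

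At 50 µM without PE, all 20 cytosolic and 9 of 14 mitochondrial synthetases rose relative to Vehicle, where 30.5% of all rows tested were called higher and 30.2% lower. The median log2 fold change was 1.23 for cytosolic and 0.40 for mitochondrial genes, and -0.01 for all rows tested. Gars had 244, 284 and 309 FPKM in 50 µM, against 64.8, 67.2 and 67.8 FPKM in Vehicle (2.04 ± 0.12, adjusted p = 3.02e-09). Wars had 124, 138 and 179 FPKM in 50 µM, against 34.8, 33.6 and 37.3 FPKM in Vehicle (2.01 ± 0.12, adjusted p = 3.02e-09). Mars, with the shared locus, had 138, 152 and 171 FPKM in 50 µM, against 38.4, 36.7 and 43.0 FPKM in Vehicle (1.93 ± 0.11, adjusted p = 2.89e-09). All 3 genes were again the largest cytosolic rises, with no overlap between groups.

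Tars2 had 39.9, 41.4 and 43.0 FPKM in 50 µM, against 20.1, 18.9 and 18.8 FPKM in Vehicle (1.06 ± 0.07, adjusted p = 1.22e-08). Rars2 had 15.1, 16.8 and 16.04 FPKM in 50 µM, against 7.28, 6.79 and 9.23 FPKM in Vehicle (0.96 ± 0.11, adjusted p = 1.74e-06). Fars2, for mitochondrial phenylalanine, had 16.6, 22.1 and 18.6 FPKM in 50 µM, against 10.2, 10.9 and 10.7 FPKM in Vehicle (0.78 ± 0.12, adjusted p = 2.89e-05). Each of these mitochondrial genes had its groups apart. The calls of Farsa (0.26 ± 0.10, adjusted p = 0.0324) and Hars (0.18 ± 0.06, adjusted p = 0.028) were lost in several alternatives, and the Farsa groups overlapped. Without Vehicle replicate 2 the adjusted p was 0.123 for Farsa and 0.101 for Hars; Farsa also lost its call without Vehicle replicate 3 or 50 µM replicate 1, and Hars without Vehicle replicate 1 or 50 µM replicates 2 or 3. Quantile normalization turned the Hars value to -0.0044. Dars lost its call only after quantile normalization (adjusted p = 0.423), and Aars2, for alanine, only without 50 µM replicate 3 (adjusted p = 0.0526).

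The same 5 mitochondrial genes that were not called with PE missed the threshold here. Cars2 had a log2 fold change of -0.28 ± 0.13 (adjusted p = 0.0593) and Pars2 of -0.18 ± 0.10 (adjusted p = 0.141), whereas Lars2, Ears2 and Wars2 had values of 0.28, 0.33 and 0.30. With the replicate number as a block, Cars2 fell (adjusted p = 0.0395) and Ears2 and Lars2 rose (adjusted p = 0.0326 and 0.0266). After quantile normalization Ears2, Lars2 and Wars2 rose (adjusted p = 0.0076, 0.00622 and 0.00577).

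**Figure D4:**
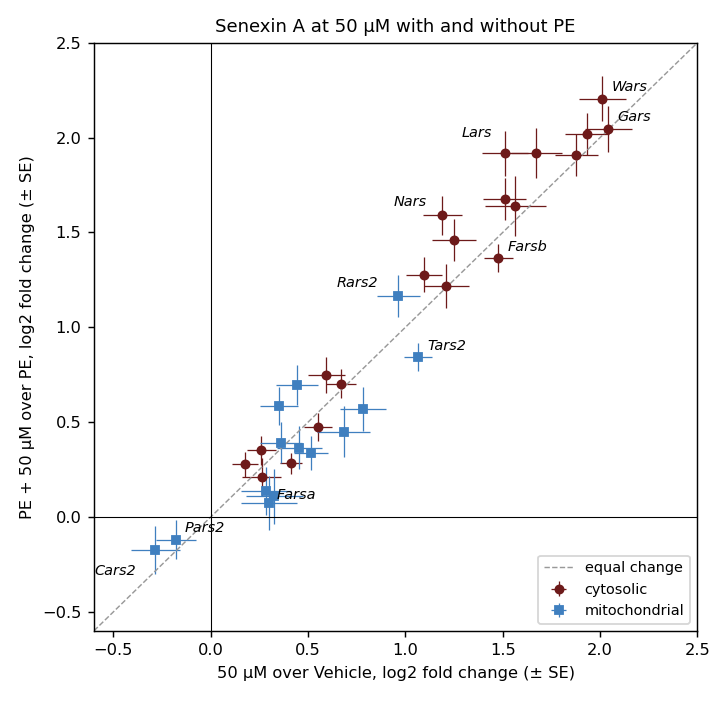
Log2 fold change (± SE) of each synthetase for 50 µM Senexin A in PE-treated cells against PE (y axis) and for 50 µM alone against Vehicle (x axis); circles are cytosolic, squares mitochondrial genes, and the dashed line marks equal change. The 2 comparisons share no library, and Lars and Nars lie farthest above the line, each with a difference of 0.40.

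Whether the response to the inhibitor differed with PE was tested as an interaction. No synthetase was called at 50 µM (limma; 2 cytosolic and 0 mitochondrial genes at an unadjusted p under 0.05), where 7.01% of all rows tested were called. The largest differences were 0.40 ± 0.17 for Lars (adjusted p = 0.16) and 0.40 ± 0.14 for Nars, for asparagine (adjusted p = 0.106). Nars was called with the replicate number as a block (adjusted p = 0.0435) and after quantile normalization (adjusted p = 0.0488). At 10 µM no synthetase was called either (2 cytosolic and 0 mitochondrial genes at an unadjusted p under 0.05), and 0.305% of all rows were. The median SE of an interaction was 0.167 on the log2 scale over all rows tested, and a value that misses the threshold does not show that responses were equal.

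At 10 µM in PE-treated cells, 13 of 20 cytosolic and 2 of 14 mitochondrial synthetases rose, against 9.13% of all rows called higher and 7.84% called lower. The median log2 fold change was 0.38 for cytosolic, 0.20 for mitochondrial and 0.01 for all rows. Mars had 69.0, 50.4 and 62.9 FPKM in PE with 10 µM, against 40.7, 33.0 and 42.9 FPKM in PE (0.63 ± 0.11, adjusted p = 0.00168). Gars had 127, 84.4 and 106 FPKM in PE with 10 µM, against 72.5, 61.6 and 75.0 FPKM in PE (0.58 ± 0.12, adjusted p = 0.00433). Iars, for isoleucine, had 51.4, 31.9 and 41.2 FPKM in PE with 10 µM, against 31.3, 22.6 and 28.2 FPKM in PE (0.57 ± 0.16, adjusted p = 0.0204). In all 3 genes replicate 2 was the lowest library of both groups and replicate 1 the highest with inhibitor, and the groups stayed apart.

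Tars2 had 34.6, 34.0 and 34.1 FPKM in PE with 10 µM, against 26.6, 24.5 and 23.6 FPKM in PE (0.45 ± 0.07, adjusted p = 0.000961). Sars2 had 11.5, 11.6 and 7.89 FPKM in PE with 10 µM, against 8.24, 6.42 and 7.35 FPKM in PE (0.43 ± 0.14, adjusted p = 0.0392), and its groups overlapped. The Sars2 call was lost without PE replicates 2 or 3 or replicates 1 or 2 of PE with 10 µM (adjusted p = 0.0952 to 0.154), which left 1 mitochondrial call. The count of cytosolic calls changed when a single library was left out, in fits without the replicate number as a block. It was 6 without PE replicate 2 and 5 without replicate 1 of PE with 10 µM, and Iars was among the calls lost in both (adjusted p = 0.102 and 0.109). Of the 15 members called, 5 were called in every alternative. The mitochondrial count was 5 with the replicate number as a block, which added Aars2, Fars2 and Nars2 (adjusted p = 0.0492, 0.0455 and 0.0115), and Kars was called there too (adjusted p = 0.0204). That fit called 1545 of all 10478 rows higher and 1379 lower, in place of 957 and 821.

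At 10 µM without PE, 3 cytosolic and 2 mitochondrial synthetases rose relative to Vehicle, against 9.17% of all rows called higher and 7.01% lower. Mars had 54.5, 50.7 and 54.1 FPKM in 10 µM, against 38.4, 36.7 and 43.0 FPKM in Vehicle (0.42 ± 0.11, adjusted p = 0.0183). Farsb had 40.2, 41.9 and 40.8 FPKM in 10 µM, against 33.2, 31.5 and 32.5 FPKM in Vehicle (0.33 ± 0.07, adjusted p = 0.00674). Qars had 70.2, 67.5 and 70.3 FPKM in 10 µM, against 61.1, 60.8 and 57.1 FPKM in Vehicle (0.21 ± 0.06, adjusted p = 0.0168). All 3 genes kept their groups apart, by margins of several FPKM.

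Vars2 had 8.23, 8.12 and 8.98 FPKM in 10 µM, against 6.08, 6.05 and 6.71 FPKM in Vehicle (0.38 ± 0.09, adjusted p = 0.00923). Tars2 had 24.4, 26.2 and 20.9 FPKM in 10 µM, against 20.1, 18.9 and 18.8 FPKM in Vehicle (0.29 ± 0.07, adjusted p = 0.0151). The groups did not overlap in either gene. Without 10 µM replicate 1 the calls of Mars (adjusted p = 0.0558), Qars (0.0513) and Tars2 (0.0507) were lost. Mars also lost its call without Vehicle replicates 1 or 2, Qars without Vehicle replicate 3, and Tars2 without Vehicle replicates 2 or 3 or 10 µM replicate 2. With the replicate number as a block Iars and Rars2 were called as well (adjusted p = 0.03 and 0.0359).

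Set against 10 µM directly, 50 µM gave higher levels of 17 cytosolic and 4 mitochondrial synthetases in the presence of PE, where 21.3% of all rows were called higher and 19.9% lower. The median log2 difference was 1.02 for cytosolic and 0.13 for mitochondrial genes. Without PE, 19 cytosolic and 7 mitochondrial genes were higher at 50 µM than at 10 µM and Pars2 was lower (25.4% of all rows higher and 24.9% lower), with medians of 1.10 and 0.35. The Pars2 call (-0.27, adjusted p = 0.0384) was lost without 10 µM replicates 1 or 2, without any 50 µM replicate and after quantile normalization (-0.01, adjusted p = 0.925). Farsa (adjusted p = 0.0445) lost its call in most alternatives, among them without any 10 µM replicate. Hars and Qars lost theirs after quantile normalization (adjusted p = 0.0853 and 0.376), and Wars2 without 10 µM replicate 2 or 50 µM replicate 3. Without 50 µM replicate 3 the mitochondrial count was 5 in place of 8. Of the members called, 20 of 21 with PE and 21 of 27 without it were called in every alternative.

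PE on its own changed few synthetases. Against Vehicle, 2 cytosolic and 3 mitochondrial genes rose, while 17.9% of all rows tested were called higher and 12.7% lower. The median log2 fold change was -0.01 for cytosolic and 0.01 for mitochondrial genes; after quantile normalization these medians were -0.10 and 0.09, with -0.04 for all rows. As a share of the table's sum, the cytosolic genes made up 0.109% to 0.127% in PE, against 0.146% to 0.168% in Vehicle, while their sums overlapped. After quantile normalization the share of higher calls among all calls was 47.7% in place of 58.5%, with Nars and Qars called lower (adjusted p = 0.047 and 0.0487) and Nars2 higher (adjusted p = 0.027). Farsb had 40.8, 40.2 and 40.7 FPKM in PE, against 33.2, 31.5 and 32.5 FPKM in Vehicle (0.32 ± 0.07, adjusted p = 0.00421). Rars, for arginine, had 54.3, 48.8 and 54.3 FPKM in PE, against 47.5, 41.9 and 44.0 FPKM in Vehicle (0.23 ± 0.08, adjusted p = 0.0331). Quantile normalization ended that call (adjusted p = 0.202), as did leaving out any of 4 libraries (Vehicle replicates 2 and 3, PE replicates 1 and 3).

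Fars2 had 16.4, 14.2 and 12.7 FPKM in PE, against 10.2, 10.9 and 10.7 FPKM in Vehicle (0.41 ± 0.12, adjusted p = 0.0159, and 0.0853 without PE replicate 1). Tars2 had 26.6, 24.5 and 23.6 FPKM in PE, against 20.1, 18.9 and 18.8 FPKM in Vehicle (0.35 ± 0.07, adjusted p = 0.00207). Pars2 had 4.15, 4.57 and 4.29 FPKM in PE, against 3.81, 2.78 and 3.07 FPKM in Vehicle (0.34 ± 0.10, adjusted p = 0.0187, and 0.0889, 0.0674 and 0.0672 without Vehicle replicate 2, Vehicle replicate 3 or PE replicate 2). In these genes, as in Farsb and Rars, every PE library was above every Vehicle library, but they were picked by the same calls. With the replicate number as a block 5 mitochondrial genes were called, Nars2 rising (adjusted p = 0.0158) and Cars2 falling (adjusted p = 0.0402) in addition. That fit also called more of the whole table, with 2411 of all 10478 rows higher and 2010 lower.

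Enzymes for the same amino acid in the 2 compartments could be set side by side in 11 pairs. In PE-treated cells at 50 µM the cytosolic log2 fold change was the larger in 8 pairs, and the mitochondrial one in the histidine, arginine and threonine pairs. The same split was seen at 50 µM without PE. At 10 µM with PE, at 10 µM alone and in PE against Vehicle the cytosolic change was the larger in 6 pairs and the mitochondrial one in 5. The Wars to Wars2 ratio of FPKM was 29.7 ± 2.75 in PE with 50 µM and 6.76 ± 1.17 in PE. The Sars to Sars2 ratio was 34.9 ± 3.18 in PE with 50 µM and 13.0 ± 0.838 in PE. The Rars to Rars2 ratio was 4.80 ± 0.338 in PE with 50 µM and 7.06 ± 0.512 in PE (SD, n = 3 each), so this pair moved the other way. Hars and Hars2 are divergent neighbours whose start sites lie 144 bases apart in RefSeq's GRCr8 annotation. Their log2 fold changes were 0.28 ± 0.06 and 0.58 ± 0.10, and the Hars to Hars2 ratio was 2.33 ± 0.121 in PE with 50 µM and 2.94 ± 0.440 in PE. Of the genes that serve both compartments, Gars rose by 2.05 and Kars by 0.47 on the log2 scale. The Gars to Kars ratio was 2.45 ± 0.261 in PE with 50 µM and 0.816 ± 0.0779 in PE. No test was run on these ratios.

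**Figure D5:**
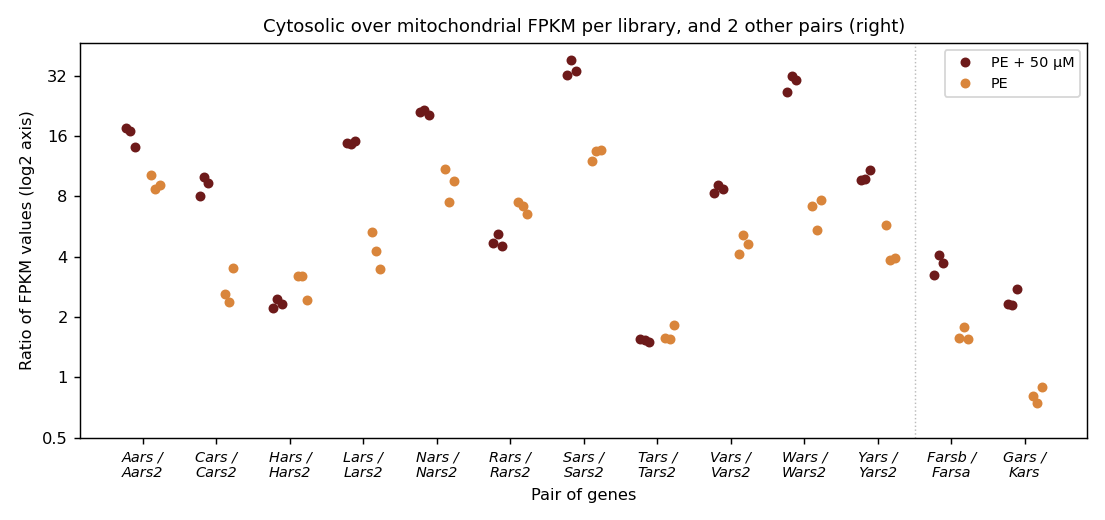
Ratio of FPKM values (log2 axis) in each library of PE with 50 µM Senexin A and of PE, for 11 pairs of a cytosolic over a mitochondrial synthetase and, right of the dotted line, for Farsb over Farsa and Gars over Kars. The Wars to Wars2 ratio lay between 26.6 and 31.9 in PE with 50 µM and between 5.44 and 7.64 in PE, and the Rars to Rars2 ratio was lower with inhibitor.

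By structural class, all 9 class I enzymes of the cytosol rose in PE with 50 µM against PE, with a median log2 fold change of 1.64, and 9 of 10 class II subunits, with a median of 0.98; Eprs, whose protein joins a class I and a class II enzyme, was counted in neither. The 8 enzymes of the multisynthetase complex all rose, with a median of 1.17, and 11 of the 12 outside it, with a median of 1.41. Over all rows tested 29.3% were called higher and 27.4% lower. As 19 of 20 cytosolic genes rose, these counts do not set one grouping apart from another. Within the complex the range was wide, from 0.28 for Qars to 2.02 for Mars. The scaffold genes rose as well: Eef1e1 by 0.86 ± 0.10, Aimp1 by 0.84 ± 0.08 and Aimp2 by 0.73 ± 0.12.

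A list of 13 cytosolic synthetases known to respond to ATF4 in other cells held the large rises, although it was drawn up with earlier results of these data known. All 13 rose in PE with 50 µM, where 29.3% of all rows were called higher, with a median log2 fold change of 1.68 and a range from 0.75 to 2.20. Of the 7 remaining cytosolic genes 6 rose, with a median of 0.35 and a range from 0.21 to 1.36, the highest being Farsb. At 10 µM with PE, 12 of the 13 and 1 of the 7 rose, with medians of 0.39 and 0.15, where 9.13% of all rows were called higher. Most of the calls on the list were lost when a single library was left out, in fits without the replicate number as a block. Aars, Cars, Eprs, Iars, Nars, Sars and Wars lost theirs without PE replicate 2, and these and Vars without replicate 1 of PE with 10 µM. With all libraries kept and the replicate number as a block, none of these genes lost its call.

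The promoter windows of RefSeq (GRCr8), from 250 bases before to 50 after each start site, were searched for TGATGCAA on both strands, the form of the composite element bound by C/EBP and ATF factors that is found in several amino acid response genes. Windows were found for 33 of the 36 listed genes; Dars, Gars and Rars had no entry. The motif was chosen after the expression values were seen. It occurred in 7 of 17 cytosolic windows (41.2%), in 0 of 16 mitochondrial ones and in 266 of 33465 promoters of the table (0.795%). The 7 genes (Aars, Cars, Iars, Mars, Nars, Tars and Yars) all belong to the ATF4 list. Of the other ATF4 and CHOP response genes, 3 of 24 windows (12.5%) held it. The looser TGATGNAA, which includes TGATGCAA, was in the same 7 genes and in 3.98% of all promoters. Of these matches 5 are shown because they lie upstream of the start site of genes that rose; each line gives 50 bases of the gene's own strand, with the match in capitals (TTGCATCA is TGATGCAA read on the other strand).
Mars, chr7:65023742-65023791, minus strand: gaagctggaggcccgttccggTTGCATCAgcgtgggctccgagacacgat
Iars, chr17:15193648-15193697, minus strand: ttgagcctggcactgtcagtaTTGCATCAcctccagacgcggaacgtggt
Aars, chr19:55908349-55908398, plus strand: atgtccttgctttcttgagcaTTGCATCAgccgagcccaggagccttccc
Nars, chr18:60275768-60275817, minus strand: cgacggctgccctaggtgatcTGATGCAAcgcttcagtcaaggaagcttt
Tars, chr2:62114801-62114850, minus strand: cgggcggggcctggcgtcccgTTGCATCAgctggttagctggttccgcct
Relative to the start site the matches lay at position -17 in Mars, -24 in Iars, -14 in Nars, -27 in Tars and -112 in Aars, and at 18 and 39 in Cars and Yars, inside the transcribed part. Genes with a match had a median log2 fold change of 1.59 (0.75 to 2.02, n = 7) in PE with 50 µM, and cytosolic genes without one 1.32 (0.21 to 2.20, n = 10). The order was reversed at 50 µM alone (1.25 with and 1.29 without a match) and at 10 µM with PE (0.37 and 0.38). At 10 µM alone the medians were 0.20 with and 0.17 without a match. The ranges overlapped in each of these comparisons, and Wars and Lars were among the genes without a match. CACGTG was in 29.4% of cytosolic, 6.25% of mitochondrial and 6.42% of all windows, and TGACGTCA in 0 of 17 cytosolic and 0 of 16 mitochondrial windows and in 1.83% of all.

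Genes that act with the synthetases moved in PE with 50 µM as follows. All 24 tested ATF4 and CHOP response genes other than synthetases rose, where 29.3% of all rows were called higher. This list too was drawn up with earlier results of these data known. The median log2 fold change was 2.12, led by Trib3 at 3.26 ± 0.41, Asns at 2.95 ± 0.23, Phgdh at 2.57 ± 0.15 and Mthfd2 at 2.52 ± 0.19. Trib3 is a pseudokinase that dampens the ATF4 response, Asns makes asparagine, Phgdh opens serine synthesis and Mthfd2 is a mitochondrial folate enzyme. Atf4 itself had 746, 842 and 780.1 FPKM in PE with 50 µM, against 283, 213 and 248 FPKM in PE (1.68 ± 0.14, adjusted p = 7.54e-08), and at 10 µM its value was 0.17 ± 0.14 (adjusted p = 0.43). Ddit3 had 275, 340.1 and 263 FPKM in PE with 50 µM, against 59.2, 49.2 and 56.5 FPKM in PE (2.39 ± 0.17, adjusted p = 2.54e-08), with the uncertainty of the locus shared with Mars. The groups were apart in both genes. At 50 µM without PE, 24 of 24 tested genes of this list rose too, with a median of 1.82, where 30.5% of all rows were called higher.

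Among kinases and partners upstream of ATF4, 2 of 9 rose and 3 fell in PE with 50 µM, shares close to the 29.3% higher and 27.4% lower of all rows. The eIF2 kinases Eif2ak3 (PERK), Eif2ak4 (GCN2) and Eif2ak2 (PKR) fell by 0.56, 0.55 and 0.53 on the log2 scale, and Ppp1r15a, a phosphatase subunit that reverses eIF2 phosphorylation, rose by 1.11 ± 0.14, as did Eif2s1, the alpha subunit of eIF2, by 0.43. At 10 µM with PE, Ppp1r15a was called lower (-0.44, adjusted p = 0.0406), a call lost without filter, with array weights and without most single libraries. Of 18 genes for tRNA export and processing 11 rose and 1 fell. The tRNA exporter Xpot led, with 79.0, 76.9 and 79.3 FPKM in PE with 50 µM, against 23.5, 22.5 and 24.8 FPKM in PE (1.69 ± 0.10, adjusted p = 4.55e-09). Trnt1, which adds the terminal CCA bases, rose by 0.95 ± 0.08, Rpp40 of ribonuclease P by 0.61 ± 0.12, and Tsen34, a subunit of the tRNA splicing endonuclease, fell by 0.71 ± 0.26 (adjusted p = 0.0302), a call lost by quantile normalization (adjusted p = 0.0767) and without PE replicate 3 or replicates 1 or 2 of PE with 50 µM (adjusted p = 0.0681 to 0.15). At 10 µM with PE, Xpot had 0.30 ± 0.10 (adjusted p = 0.0585, and 0.0124 with the replicate number as a block).

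Mitochondria make glutaminyl-tRNA by amidating a misacylated tRNA, and Qrsl1, the catalytic subunit of that enzyme, rose by 0.87 ± 0.14. Over all rows tested 29.3% were called higher and 27.4% lower. The other of 3 tested genes of this list to be called was Mtfmt, the formyltransferase of the initiator tRNA, at 0.29 ± 0.11 (adjusted p = 0.0363). Its groups overlapped, and its call was lost without filter, with median-ratio scaling, in the fit of the compared groups only and without replicates 1 or 2 of either group (adjusted p = 0.0512 to 0.164). Of 6 genes for proofreading and peptidyl-tRNA recycling 2 rose and 1 fell, again near the shares over all rows; the fall, of Ptrhd1, was lost without replicate 1 of either group, and the rise of Prorsd1 without PE replicate 2 or replicates 1 or 2 of PE with 50 µM. Of the elongation factors that receive charged tRNA, 5 of 6 cytosolic ones rose and Eef1a2, the muscle form of elongation factor 1 alpha, fell by 0.69. Of 4 mitochondrial ones 2 rose and Gfm1 fell by 0.29. No test set these short lists against each other or against the shares over all rows. The rise of Tufm (0.27, adjusted p = 0.0407) was lost in 10 alternatives, 5 of them without a single library (PE replicates 1, 2 or 3, or replicates 1 or 2 of PE with 50 µM), and the fall of Gfm1 was lost without PE replicate 1 or replicates 1 or 3 of PE with 50 µM (adjusted p = 0.0607 to 0.111). In the kinase module of Mediator, Cdk8 had 17.2, 17.7 and 13.0 FPKM in PE with 50 µM, against 13.2, 11.3 and 14.5 FPKM in PE (0.28 ± 0.11, adjusted p = 0.0455, but 0.208 without PE replicate 2), and its groups overlapped; the call was also lost without PE replicate 1 or replicates 1 or 2 of PE with 50 µM. Cdk19, its paralog, had 5.27, 4.34 and 6.72 FPKM in PE with 50 µM, against 6.33, 5.25 and 6.99 FPKM in PE (-0.17 ± 0.17, adjusted p = 0.423). An inhibitor of kinase activity need not change these mRNA levels.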

How the data were processed

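The deposited table held 1 FPKM value per gene and library, made by the authors with Bowtie2, Cufflinks and the rn5 build, per the submitters' processing notes; versions, annotation and strand handling are not given in the sources used here. Libraries were prepared from polyadenylated RNA with a TruSeq kit, per the labels' protocols. No column was left unused, and total reads were not given, so no counting interval is stated. A row entered the test (10478 did) when 3 or more of the 18 libraries reached 1 FPKM. Values were taken to log2(FPKM + 1) and fitted with limma 3.58.1 in R 4.3.3, using a variance trend, all 6 group means in 1 model (12 residual degrees of freedom, median SE 0.118) and Benjamini-Hochberg adjustment over all rows per comparison; calls are at an adjusted p under 0.05. The fold changes are on that log2 scale, which understates changes of low genes. Figures used Python 3.11.15, pandas 2.3.3, numpy 2.4.6 and matplotlib 3.10.9.

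Members and lists were chosen with earlier results of these data known. Members with values for each library are the 3 largest called rises and falls of each class in PE against Vehicle and in the comparisons of each dose with its own background, and those not called at 50 µM with PE; of other lists, up to 4 called genes of largest change are named, plus Atf4, Ddit3, Asns, Xpot, Cdk8 and Cdk19. Libraries of a group correlated with r of 0.986 to 0.992. Replicate numbers pair the libraries, judged from the data: after removal of group means, r ran from 0.213 to 0.587 over the 45 pairs of libraries that share a number, and from -0.462 to 0.095 over the rest; the labels do not say what a number shares. The main model has no block, as planned, and the replicate block, other pseudocounts, filters, scalings, a fit of the compared groups only, array weights, no variance trend and leaving out each library were alternatives. A further gene of these lists is not reported here.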

Additional observations from a re-analysis of the deposited data

How the results depend on the processing

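Depth per library is unknown, so counting error could not be separated from other spread. Each group has 3 libraries. Of the members called, 26 of 28 at 50 µM with PE, 25 of 29 at 50 µM alone, 5 of 15 at 10 µM with PE, 2 of 5 at 10 µM alone and 2 of 5 in PE against Vehicle were called in every alternative. The mitochondrial count in PE against Vehicle was 5 with the replicate block and 5 with array weights, in place of 3. Of all 10478 rows, the block called 2411 higher and 2010 lower there, and array weights 2222 and 1728, in place of 1874 and 1331. At 10 µM with PE a fit of the compared groups only gave 5 cytosolic and 1 mitochondrial call, no filter gave 1 mitochondrial call and the replicate block 5. At 10 µM alone the fit of the compared groups only gave 1 mitochondrial call. The interaction at 50 µM had 1 cytosolic call, Nars, after quantile normalization and 1 with the replicate block. Hars at 50 µM alone turned to -0.0044 after quantile normalization (adjusted p = 0.954). The cause of these changes was not tested. Leaving out 1 library gave 1 to 2 cytosolic calls in PE against Vehicle, 5 to 14 cytosolic and 1 to 3 mitochondrial calls at 10 µM with PE, 1 to 3 and 1 to 2 at 10 µM alone, and 5 to 9 mitochondrial calls for 50 µM against 10 µM without PE. The other counts stayed within 1.5 times, and no scaling moved the median of all genes by 0.1. With quantile normalization the medians of the members moved more than that of all rows, at 50 µM and also in PE against Vehicle, as given above. After quantile normalization those at 50 µM alone were 1.10 for cytosolic and 0.55 for mitochondrial genes, in place of 1.23 and 0.40. In PE with 50 µM against PE they were 1.33 and 0.45, in place of 1.41 and 0.38. The replicate block changed the member calls given beside the results, and in the comparisons of 50 µM with 10 µM it added calls of Hars, Qars and Fars2 with PE and of Dars, Aars2 and Nars2 without it.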
